A study of Mus musculus with 39 samples.

Results

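Mest, Sfrp5, Bmp3 and Npr3 are 4 genes whose RNA has been followed in fat as the pad grows. They were chosen by name as genes that track adipocyte growth, with earlier results of these arrays in view, and they are 4 of the 29411 gene names on the array and 6 of its 40628 probes. The arrays measured RNA of epididymal adipose tissue, the fat pad beside the epididymis, from C57BL/6J mice, an inbred strain that becomes obese on fat-rich food. Mice aged 3 to 4 weeks at the start ate a control diet low in fat (LFC, with 10% of its calories as fat) or a high fat diet with added sucrose (HFC, with 60%). HF5, HF20 and HF75 are groups that ate the HFC diet and received KAL-1, an ethnobotanical formulation, at 5, 20 or 75 µg. There were 11 LFC arrays (days 1, 6, 10 and 14, and weeks 0, 3, 6, 9, 12, 15 and 18), 10 HFC arrays (the same times from day 6 on) and 6 arrays for each KAL-1 dose (weeks 3 to 18). A published account of the liver arrays of this experiment counts weeks from day 14. By that count day 14 and week 0 are the same time on the diet, and week 0 is not its start.

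The labels name no transgene, deletion or other agent in any group, and all groups are of the same strain. The labels speak of 5 animals for each group and time and of biological replicates, but the files hold 1 array for each diet and time point, and whether RNA of several mice was pooled is not stated. The time points of a diet therefore served as its replicates. A level below is the log2 of the processed signal minus the 75th percentile of that array, so 0 is the 75th percentile, and a step of 1 is a factor of 2. Levels of different genes come from different probes and are not set against each other. Where a gene had several probes (Npr3 had 3) the brightest was used.

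Adipose tissue grows by storing lipid in existing adipocytes and by forming new ones. Mest (mesoderm specific transcript) is an imprinted gene, expressed from the paternal copy, and its RNA in fat is known to rise when the pad expands. Sfrp5 (secreted frizzled-related protein 5) binds Wnt ligands outside the cell and keeps them from their receptors. Bmp3 is an atypical member of the bone morphogenetic protein (BMP) family that opposes other BMPs. Npr3 is the receptor that clears natriuretic peptides, which otherwise act on adipocytes to release stored lipid. Leptin (Lep), the hormone that adipocytes secrete in proportion to the fat they hold, is given beside these genes for comparison.

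The arrays carried adipocyte markers, 2 arrays and 1 time point stood apart, and epididymis and testis genes varied widely between arrays. The share of spots well above background was 53.7% to 79.6% on 37 arrays, where the scanner software had marked 21 to 387 outlier spots. The LFC week 3 array had 97.1% and 16431 outlier spots, and the HFC week 12 array had 94.5% and 10531. Outlier spots were treated as missing, which left no Bmp3 value for LFC week 3 and no Sfrp5 value for HFC week 12. Of 13 adipocyte markers 12 were well above background on all of the 37 arrays, and the median level of that list was 3.04 to 6.47. At week 6 the LFC, HFC, HF5 and HF75 arrays differed from the rest in markers of the pad's surface and of its depot. The median of 8 mesothelium genes was -7.34 to -5.89 on these 4 arrays and -3.74 to 1.09 on the 33 others, with Upk3b, Bnc1, Lrrn4 and Upk1b not well above background on any of the 4. The median of 8 subcutaneous depot genes was -3.11 to -2.62 on the 4 and -7.92 to -4.56 on the 33 others. Among them Tbx15 was at -1.46 to -0.52 on the 4 and at -9.27 to -4.71 on the others. Hoxc8 was lower on the 4 (-7.95 to -5.87, against a median of -4.18 on the others). En1 was not well above background on any of the 4, and Hoxc9 overlapped (-0.33 to 0.31, against -0.92 to 1.91). The HF20 array of week 6 was not among the 4, with a mesothelium median of -0.73. Its testis median of 1.97 was the highest of the 37 arrays, and its epididymis median was -0.35. Across the 37 arrays the median of 11 epididymis genes ran from -8.56 to 2.45 and that of 6 testis genes from -6.87 to 1.97. The part of week 6 in the results was not tested, and values without it stand beside many, but not all, of those it touches.

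The promoters of Mest and Sfrp5 are shown because, of the 4 genes, only these had a window outside the gene. Both sequences are the 250 bases before the gene's outermost start in RefSeq, on build GRCm38.p6, while the array annotation uses an older build from which no coordinate is taken. Mest lies on the plus strand at chr6:30733256-30733505 and Sfrp5 on the minus strand at chr19:42202253-42202502, and both windows are upstream of the gene's first exon. Capitals mark GGGCGG, the core of an Sp1 site, found on either strand.
Mest: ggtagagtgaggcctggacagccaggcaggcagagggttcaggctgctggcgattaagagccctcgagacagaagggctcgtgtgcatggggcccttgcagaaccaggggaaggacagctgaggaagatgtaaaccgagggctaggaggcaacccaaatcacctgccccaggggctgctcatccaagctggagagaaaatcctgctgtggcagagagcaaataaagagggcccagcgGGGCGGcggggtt
Sfrp5: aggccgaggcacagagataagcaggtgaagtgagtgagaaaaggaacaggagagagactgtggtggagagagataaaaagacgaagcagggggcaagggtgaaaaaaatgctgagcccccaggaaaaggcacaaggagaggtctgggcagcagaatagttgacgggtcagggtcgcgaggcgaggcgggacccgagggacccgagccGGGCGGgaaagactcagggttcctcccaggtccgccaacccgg

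Of 32851 RefSeq mouse promoter windows of this length 32.7% hold GGGCGG, so its presence in both is common. The other motifs searched on both strands were CCAAT (in 33.8% of windows), TATAAA (12.4%), AGGTCA (14.0%, a nuclear receptor site), CACGTG (6.02%, an E-box) and TTTGAA (16%), and these letters are in neither printed window. The motifs do not overlap in these windows. Mest's window holds 7 CpG dinucleotides and 60.8% G or C, and Sfrp5's holds 13 and 59.6%, against medians of 6 and 52.4% over all windows. RefSeq gives Mest 3 start sites, and the windows of the inner pair hold 14 CpG each. A count of 14 or more is found in 29.4% of windows, and one of 13 or more in 31.5%. The Npr3 window lies within the gene and is not printed, and Bmp3 has no entry. No methylation or binding was measured, so the windows describe the genes and were related to no value.

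On the control diet Mest was lower in the later arrays than at the start. On LFC, Mest stood at 2.05 on day 1, 2.44 on day 6, 2.94 on day 10, 3.16 on day 14 and 3.26 in week 0. From week 3 to week 18 its lowest LFC level was -0.07 (week 6), its median 0.95 and its highest 2.49 (week 18). The week 18 array lay above those of days 1 and 6, and each of the other 5 later arrays lay below all 5 early ones. What share of all probes does the same was not counted. On HFC the 4 early arrays held 4.65 (day 6), 2.56 (day 10), 5.05 (day 14) and 3.72 (week 0), and the 6 later ones had a lowest level of 0.86 (week 6), a median of 2.47 and a highest level of 5.18 (week 3).

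Sfrp5 was a dim probe, well above background on 31 of the 38 arrays that measured it. On LFC the early arrays held -4.81 (day 1), -3.84 (day 6), -4.38 (day 10), -3.56 (day 14) and -6.34 (week 0), and the later 6 had a lowest level of -5.67 (week 9, not well above background), a median of -4.23 and a highest level of -2.34 (week 18). The early and late LFC arrays overlapped over most of their range. Day 14 and week 0, the same time if weeks count from day 14, were at -3.56 and -6.34 on LFC. The picture on HFC was different, with -5.26 (day 6), -5.12 (day 10), -6.14 (day 14) and -5.44 (week 0) early, and -3.87 (week 3), -2.12 (week 6), -4.37 (week 9), -4.21 (week 15) and -2.80 (week 18) late. Each of the 5 late HFC arrays lay above each of the 4 early ones.

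Bmp3 was well above background on all 38 arrays that measured it. Its early LFC levels were -4.64 (day 1), -4.26 (day 6), -5.00 (day 10), -4.58 (day 14) and -5.73 (week 0), and the late ones were -3.36 (week 6), -3.73 (week 9), -3.90 (week 12), -4.84 (week 15) and -2.29 (week 18). On HFC it stood at -2.11 (day 6), -4.07 (day 10), -1.78 (day 14) and -2.23 (week 0), and from week 3 on its lowest level was -3.55 (week 15), its median -2.52 and its highest -0.66 (week 3). All 4 early HFC arrays of Bmp3 lay above all 5 early LFC arrays, with day 10 the closest, while the late arrays of the diets overlapped. What share of all probes separates in that way was not counted, so the separation is not read as particular to Bmp3.

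Npr3 was well above background on all 39 arrays. Its early LFC levels were 0.24 (day 1), 1.17 (day 6), 1.33 (day 10), 0.99 (day 14) and 2.04 (week 0), and the 6 later arrays had a lowest level of 0.11 (week 3), a median of 1.09 and a highest level of 3.4 (week 18). On HFC it stood at 2.99 (day 6), 1.75 (day 10), 4.10 (day 14) and 2.31 (week 0), with a lowest level of 0.68 (week 6), a median of 2.19 and a highest level of 4.27 (week 3) later. On LFC, week 18 was the highest later array for all 4 genes. The share of all probes for which this holds was not counted. The adipocyte list median of that array, 5.84, was also the highest of the later LFC arrays, and its part was not tested.

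**Figure D1:**
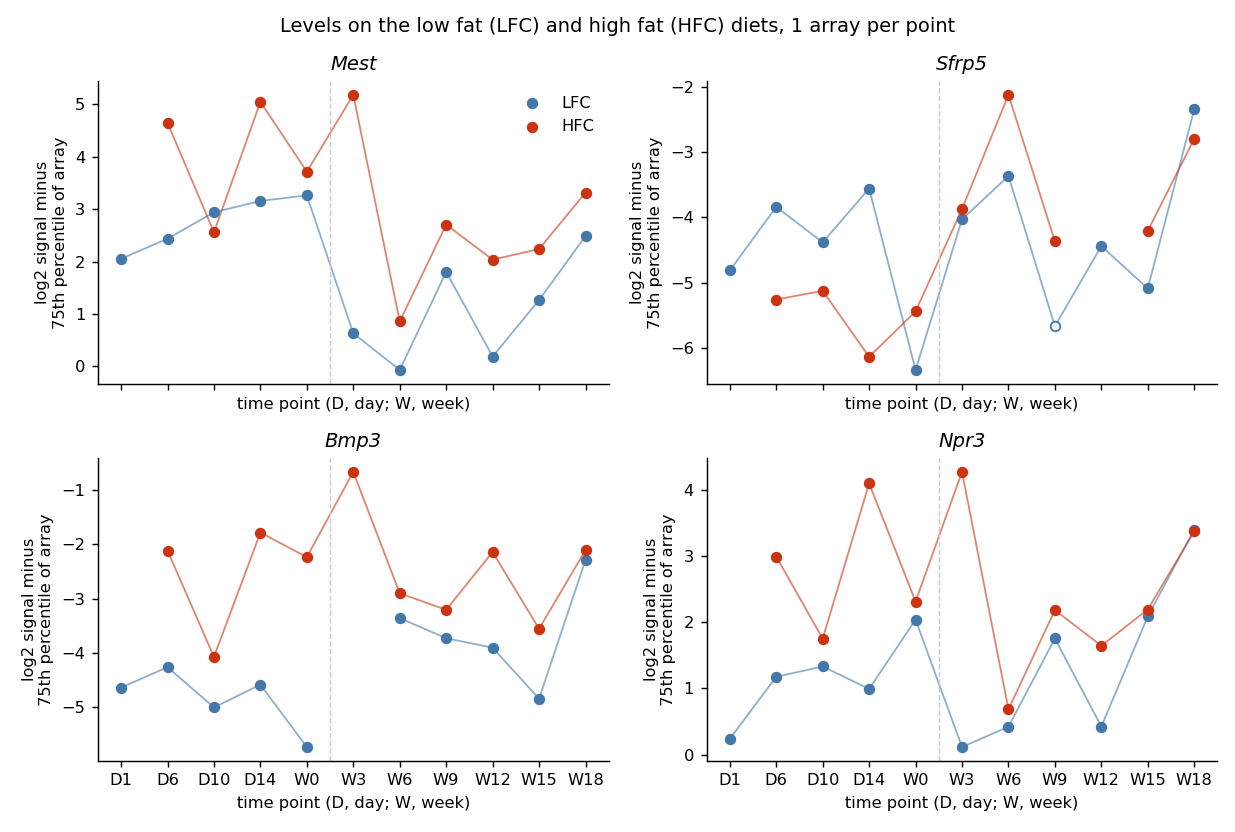
Normalised level (log2 relative to the array's 75th percentile) of Mest, Sfrp5, Bmp3 and Npr3 against time point on LFC and HFC, 1 array per point, with open markers for spots not well above background. Mest on LFC is between 2.05 and 3.26 up to week 0 and between -0.07 and 2.49 later, while Sfrp5 on HFC is lower up to week 0 than at any later time measured.

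The first comparison set HFC against LFC at the 10 time points they share and asked how the genes differ on the fat-rich diet. Mest, Bmp3 and Npr3 had higher mean levels on HFC, and Sfrp5 did not. Since the genes were chosen with this contrast known, their values are a description without a test. With limma, time point as a block and Benjamini-Hochberg adjustment, 0 of 29171 probes (0%) passed an adjusted p of 0.05 in it, with 888 at an unadjusted p under 0.05, and the methods' t-test, which compares replicates within a time point but was run here across time points on the HFC minus LFC values, gave 928 at that level and 0 after adjustment.

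Bmp3 was higher on HFC at all of the 9 time points that measured both diets, by 0.18 to 3.50 and by 1.51 ± 1.14 (SD, n = 9) on the log2 scale, a factor of 2.85. Over the settings this mean difference ran from 0.46 to 2.05. Of 25690 probes with 9 or 10 measured pairs, 0.109% were higher on HFC at every one, and those with 10 had a longer run to keep than Bmp3. Mest was higher at 9 of 10 time points, with a difference of 1.42 ± 1.34 (SD, n = 10), a factor of 2.68, and a median of 0.95. The exception was day 10 (-0.38), and the widest difference, 4.55 in week 3, involved the LFC array that stood apart. For Npr3 the difference was 1.18 ± 1.43 (SD, n = 10), a factor of 2.26, higher at 9 of 10 times and at -0.03 in week 18. Its other probes gave 0.44 (higher at 4 of 9 times) and 0.73 (5 of 9), so the count of higher pairs rests on the brightest probe. For Sfrp5 the difference was -0.08 ± 1.33 (SD, n = 9), higher at 5 of 9 times, and its sign moved with the setting, from -0.57 to 0.47. Lep was higher at 8 of 10 times, by 1.67 ± 2.08 (SD, n = 10).

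With the LFC array of week 3 and the HFC array of week 12 left out, the mean differences were 0.98 for Mest, -0.11 for Sfrp5, 1.48 for Bmp3 and 0.80 for Npr3, over 8 time points each. The period mattered most for Bmp3, Sfrp5 and Lep. Between day 6 and week 0 Bmp3 differed by 2.34 and Lep by 3.08, each higher on HFC at 4 of 4 times, and from week 3 on by 0.84 (5 of 5) and 0.72 (4 of 6). Sfrp5 went from -0.96 (higher at 1 of 4 times) to 0.63 (4 of 5). Mest was 1.04 (3 of 4) and 1.67 (6 of 6), and Npr3 1.40 (4 of 4) and 1.02 (5 of 6). The late means include week 3, where the LFC array stood apart and the difference was 4.16 for Npr3 and 4.55 for Mest. With a week left out, the late difference fell as low as 0.40 for Npr3 and 1.096 for Mest. The late Lep differences ran from -1.09 to 4.29, the highest in week 3 (-1.23 on LFC and 3.06 on HFC). The change between the early and late periods was not tested, and the share of all probes higher at every time of a period was not counted. From week 3 on, in the fit of all 5 groups (0 of 31457 probes past the threshold, 0%, and 725 at an unadjusted p under 0.05), the Sfrp5 difference was 0.56 and turned to -0.64 with normexp background correction, under which that of Bmp3 went from 1.01 to 0.17.

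**Figure D2:**
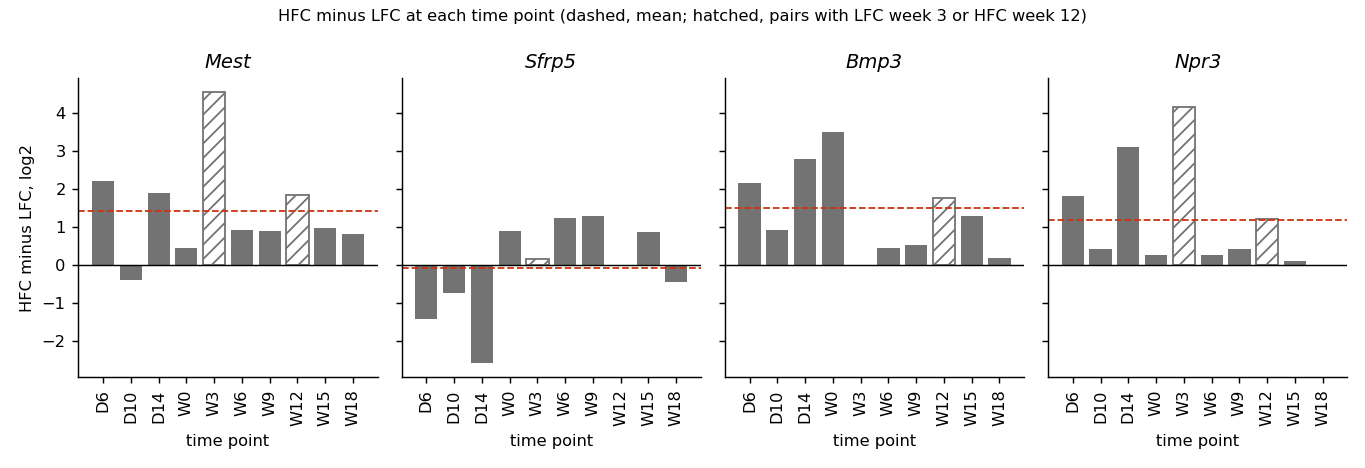
HFC minus LFC difference in log2 level at each shared time point for Mest, Sfrp5, Bmp3 and Npr3, with the mean as a dashed line and hatched bars where the LFC week 3 or HFC week 12 array takes part. Every Bmp3 bar is above 0, Mest has 1 bar below 0 (day 10), and the Sfrp5 bars fall on both sides.

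Markers of other tissues moved in the same contrast, which bears on RNA from bulk tissue, where fewer cells of a type and less RNA per cell cannot be told apart. The 8 epididymis genes tested were all lower on HFC (median -1.45), among them Lcn9 (-2.54, SE 1.06), as were the 4 testis genes (median -1.26, with 3 of 4 under quantile scaling). Lcn9 was higher on HFC at 4 of 10 times. On LFC it stood at 1.36 on day 10, 0.17 on day 14, 0.52 in week 3 and 3.67 in week 9. It was lower on every other LFC array, and the LFC array of week 3 is one that stood apart. Of 8 mesothelium genes 7 were higher (median 0.83), and of 10 macrophage genes 8 were higher (median 0.59), led by Itgax (1.11, SE 0.36). The adipocyte list was higher in 9 of 13 genes (median 0.34), against a median of 0.03 and 53.6% of probes above 0 over all probes. No gene of these lists passed the test in any comparison made here, and their part in the members' differences was not tested.

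The time course asked how levels late in the experiment (weeks 3 to 18) differ from early ones (day 14 or before, and week 0), separately on each diet. Scan period runs with this contrast, since all early arrays but week 0 were scanned in the later of 2 periods, and the HFC and LFC arrays up to day 14 share it. Quantile and median scaling moved the median of all probes by -0.17 on LFC, and by -0.17 and -0.22 on HFC, so differences of that size are not read as changes.

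Late Mest on LFC was 1.05 ± 0.98 (SD, n = 6) against 2.77 ± 0.51 (SD, n = 5) early, a difference of -1.72 (SE 0.49, 95% interval -2.77 to -0.67), which did not pass (adjusted p = 0.325, limma). It was lower in all 22 settings, between -2.21 and -0.95, and it was -2.21 (SE 1.01) within the earlier scan period, where week 0 is the only early array. On LFC 149 of 30424 probes (0.49%) passed this test, and none of the 4 genes was among them. For Bmp3 on LFC the difference was 1.22 (SE 0.49, interval 0.15 to 2.29, adjusted p = 0.824), for Sfrp5 0.43 (adjusted p = 0.949) and for Npr3 0.21 (adjusted p = 0.971). The direction of the last pair changed between settings, from -0.12 to 2.18 for Sfrp5 and from -0.67 to 1.08 for Npr3.

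On HFC the largest of the 4 differences was that of Sfrp5. It was -3.47 ± 0.97 (SD, n = 5) late and -5.49 ± 0.45 (SD, n = 4) early, a difference of 2.02 (SE 0.49, interval 0.92 to 3.12), or a factor of 4.05. This did not pass over all probes (adjusted p = 0.207, limma), where 0 of 29400 (0%) did and 5098 had an unadjusted p under 0.05. With array weights the difference was 1.86 with an adjusted p of 0.0220, while 8035 probes passed in that setting, and the adjusted p ran from 0.0220 to 1.00 over the settings. Normexp gave 0.98 (adjusted p = 0.865), and the difference was positive in all 20 settings, with 1.97 (SE 0.90) within the earlier scan period. The separation of every late from every early HFC array was shared by 0.926% of probes. Mest fell short of the test on HFC too, at -1.27 (SE 0.76, interval -2.95 to 0.41, adjusted p = 0.377), and was lower in all 21 settings, with -0.90 without week 6. Bmp3 (0.12, adjusted p = 0.926) and Npr3 (-0.40, adjusted p = 0.757, and -0.056 without week 6) were closer to 0.

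Mesothelium genes were lower late than early on both diets, 8 of 8 each (median -1.46 on LFC and -1.62 on HFC), and the adipocyte list was lower in 10 of 13 genes on LFC (median -0.27) and in 11 of 13 on HFC (median -0.81). Its level per array ran from 3.04 to 6.47 early and from 3.18 to 5.84 late on LFC, and from 4.61 to 5.92 early and from 3.75 to 6.04 late on HFC. The mesothelium median ran from -1.17 to 0.22 early and from -5.89 to 0.57 late on LFC, and from -0.15 to 1.09 early and from -6.47 to 0.72 late on HFC, the lowest values being those of week 6. Without week 6, 6 of 8 mesothelium genes were lower late on LFC (median -0.62) and 7 of 8 on HFC (median -0.78), and 6 of 13 adipocyte genes on LFC (median 0.06) and 10 of 13 on HFC (median -0.66). The part of these cells in the members' time course was not tested. In the 18 KAL-1 arrays, weeks 12 to 18 differed from weeks 3 to 9 by -0.71 for Mest (SE 0.67, adjusted p = 0.828), -0.64 for Sfrp5 (SE 0.63, 0.831), -0.45 for Bmp3 (SE 0.57, 0.877) and 0.52 for Npr3 (SE 0.55, 0.850), with 0 of 28993 probes (0%) past the threshold and 2065 at an unadjusted p under 0.05. Without week 6 the differences of Sfrp5 and Bmp3 were -0.055 and -0.25.

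The KAL-1 groups were measured at weeks 3 to 18, and Sfrp5 had its lowest mean with the highest dose. For HF75 the lowest Sfrp5 level was -6.57 (week 15), the median -5.19 and the highest -3.80 (week 6), and 3 of its 6 spots were not well above background. HF20 had a lowest level of -4.64 (week 15), a median of -3.52 and a highest level of -0.89 (week 6). HF5 lay between them, from -5.94 (week 12) through a median of -4.57 to -2.09 (week 18), also with 3 of 6 spots not well above background. HF75 was lower than HF20 at 6 of 6 weeks, and the groups overlapped between -4.64 and -3.80.

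The low HF75 level of Sfrp5 was among the earlier results known when the genes were chosen, so its HF75 differences are a description without a test. Between HF75 and HF20 the mean difference was -2.0 ± 0.99 (SD, n = 6), and -1.82 without week 6. Over all probes, 2.4% were lower on HF75 than on HF20 at every week. In that contrast 0 of 31457 probes (0%) passed, with 2083 at an unadjusted p under 0.05. HF20 exceeded HF5 by 1.29 (SE 0.38, interval 0.49 to 2.08, adjusted p = 0.178), at 6 of 6 weeks, as 5.24% of probes did, and in that contrast 0 of 31457 probes (0%) passed, with 5767 at an unadjusted p under 0.05. HF75 differed from HF5 by -0.72 ± 1.17 (SD, n = 6), in a contrast with 0 probes past the threshold (0%) and 1828 at an unadjusted p under 0.05. Against HFC, the mean paired differences of Sfrp5 were -1.56 ± 0.78 for HF75 (SD, n = 5, lower at 5 of 5 weeks), 0.39 ± 0.69 for HF20 (SD, n = 5, and 0.17 without week 6) and -0.65 ± 0.95 for HF5 (SD, n = 5). Of probes with 5 or 6 measured weeks, 1.26% were lower on HF75 than on HFC at every one. None of the contrasts of a dose with HFC had a probe past the threshold (0%), with 472, 1523 and 1076 at an unadjusted p under 0.05 for HF75, HF20 and HF5, and 549 for the mean of the doses.

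Bmp3 had the same order of doses as Sfrp5. Its HF75 levels ran from -3.95 (week 12) through a median of -3.51 to -1.64 (week 3), those of HF20 from -3.38 (week 9) through -1.57 to -0.79 (week 6), and those of HF5 from -4.64 (week 12) through -2.96 to -1.23 (week 18). HF75 was lower than HF20 at 5 of 6 weeks, with a difference of -1.39 (SE 0.45, interval -2.32 to -0.46, adjusted p = 0.747) and one of -1.13 without week 6. HF20 exceeded HF5 by 1.13 (SE 0.45, interval 0.20 to 2.06, adjusted p = 0.205), at 5 of 6 weeks. The HF75 and HF5 groups differed by -0.26 (interval -1.19 to 0.67, adjusted p = 0.950), and by -0.048 without week 6. Against HFC, Bmp3 differed by -0.88 for HF75 (lower at 5 of 6 weeks), 0.51 for HF20 and -0.62 for HF5, and by -0.95, 0.19 and -0.90 without week 6.

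For Mest no difference between doses passed the test, and that of HF75 and HF20 was smaller without week 6. Its HF75 levels ran from -0.36 (week 12) through a median of 2.03 to 3.79 (week 3), those of HF20 from 1.33 (week 12) through 2.62 to 4.55 (week 6), and those of HF5 from 1.52 (week 15) through 2.85 to 3.35 (week 18). HF75 minus HF20 was -1.19 (SE 0.59, interval -2.41 to 0.03, adjusted p = 0.758), lower at 3 of 6 weeks, and -0.48 without week 6, where HF75 was at -0.19 and HF20 at 4.55. HF20 minus HF5 was 0.26 (SE 0.59, interval -0.97 to 1.48, adjusted p = 0.859) and -0.01 without week 6, and HF75 minus HF5 was -0.93 (interval -2.15 to 0.29, adjusted p = 0.884) and -0.49 without week 6. Against HFC the differences were -1.1 for HF75 (lower at 5 of 6 weeks), 0.09 for HF20 and -0.17 for HF5, the last pair with a sign that changed between settings and with values of -0.63 each without week 6. Against LFC, Mest was higher on HF5 at 6 of 6 weeks, by 1.5 ± 0.98 (SD, n = 6), as were 1.9% of all probes, on HF20 at 5 of 6 (1.76 ± 1.72, SD, n = 6) and on HF75 at 3 of 6 (0.57 ± 1.43, SD, n = 6). Sfrp5 was above LFC on HF20 at 6 of 6 weeks (1.02 ± 0.80, SD, n = 6), as were 5.41% of probes, on HF5 at 2 of 6 (-0.27 ± 0.90, SD, n = 6) and on HF75 at 1 of 6 (-0.98 ± 1.04, SD, n = 6). Bmp3 was above LFC on HF20 at 5 of 5 weeks (1.66 ± 0.94, SD, n = 5), on HF5 at 4 of 5 (0.56) and on HF75 at 1 of 5 (-0.018), and Npr3 at 4, 4 and 5 of 6 weeks (2.07, 1.01 and 1.09) on HF20, HF5 and HF75. Without week 6 the Mest differences on HF5 and HF20 were 1.19 each.

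Npr3 was highest on HF20, where it ran from 1.37 (week 9) through a median of 3.86 to 5.03 (week 12), against 1.1 (week 6) through 2.58 to 3.74 (week 3) on HF75 and 1.45 (week 9) through 2.40 to 3.28 (week 18) on HF5. HF20 minus HF5 was 1.06 (SE 0.58, interval -0.14 to 2.25, adjusted p = 0.328), higher at 4 of 6 weeks. HF75 minus HF20 was -0.98 (interval -2.17 to 0.21, adjusted p = 0.774) and -0.55 without week 6, and HF75 minus HF5 was 0.08 (interval -1.11 to 1.27, adjusted p = 0.994) and 0.32 without week 6. Against HFC it differed by 1.04 for HF20, 0.06 for HF75 and -0.01 for HF5, and by 0.54, -0.0063 and -0.32 without week 6. The other Npr3 probes gave 0.52 and 0.48 for HF20 against HFC.

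**Figure D3:**
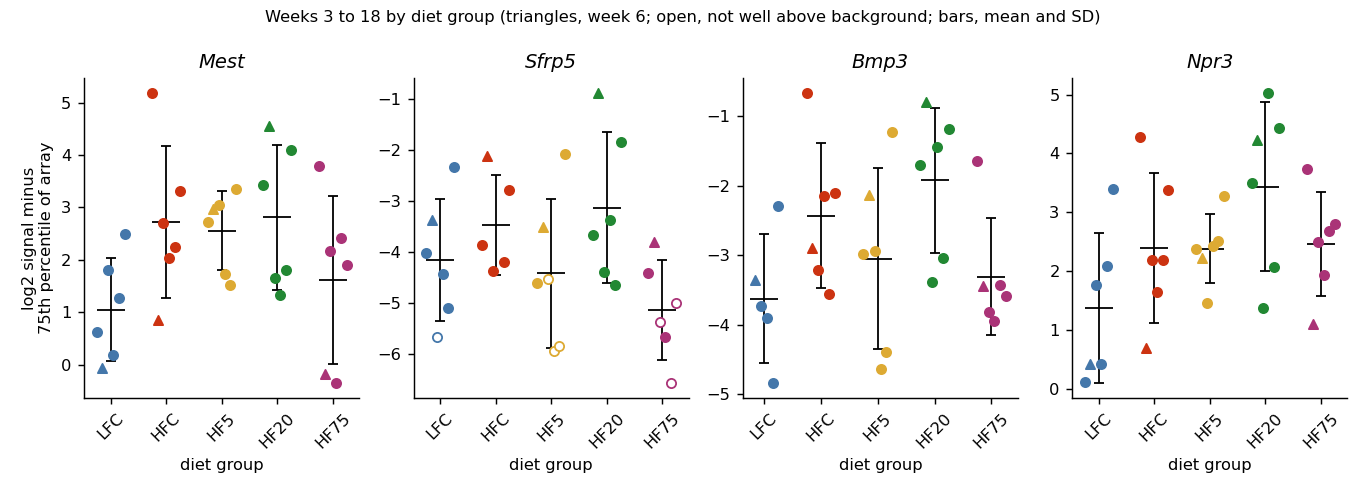
Normalised log2 level of the 4 genes at weeks 3 to 18 on LFC, HFC, HF5, HF20 and HF75, with 1 point per array, triangles for week 6, open symbols for spots not well above background, and bars for the mean and SD. HF20 has the highest mean for each gene (Mest 2.81, Sfrp5 -3.14, Bmp3 -1.92, Npr3 3.43), which for Mest does not hold without week 6 (2.46, against 3.10 on HFC), and the groups overlap throughout.

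Ordered by their means over weeks 3 to 18, Mest ran LFC (1.05), HF75 (1.62), HF5 (2.55), HFC (2.72) and HF20 (2.81). For Sfrp5 the order was HF75 (-5.14), HF5 (-4.42), LFC (-4.16), HFC (-3.47) and HF20 (-3.14), and for Bmp3 it was LFC (-3.62), HF75 (-3.31), HF5 (-3.05), HFC (-2.43) and HF20 (-1.92). For Npr3 it was LFC (1.37), HF5 (2.38), HFC (2.39), HF75 (2.46) and HF20 (3.43). Every step between neighbours was smaller than the larger of their SDs, and the SDs of all these groups ran from 0.59 to 1.61. LFC had the lowest mean for 3 of the genes and HF20 the highest for all 4. Without week 6 the highest Mest mean was that of HFC (3.10), with HF5 at 2.47 and HF20 at 2.46, while HF20 was still highest for the other genes. Other markers differed between doses as well. All 11 epididymis genes tested were lower on HF75 than on HF20 (median -2.58), as were the 8 mesothelium genes (median -1.45) and the 5 testis genes (median -1.58), and Lep differed by -2.53 (lower at 4 of 6 weeks). Without week 6 these medians were -1.62 (11 of 11 lower), -0.83 (6 of 8) and -0.33 (4 of 5), and Lep was at -1.29. HF20 exceeded HF5 in 8 of 8 mesothelium genes (median 1.29, with 7 of 8 under median scaling), but in 4 of 8 without week 6 (median 0.36), and in Lep, by 2.65 at 6 of 6 weeks. The epididymis median per array ran from -7.95 to 0.34 on HF20 and from -8.19 to -5.40 on HF75, where 3 of its 11 genes were well above background on no array. Their part in the dose differences was not tested. Quantile and median scaling moved the median of all probes by 0.08 or less between doses, and by 0.10 to 0.35 for a dose against HFC.

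Across the 37 arrays without LFC week 3 and HFC week 12, Npr3, Bmp3 and Lep varied together, Mest in part, and Sfrp5 least. These correlations are given as a description without a p, since arrays of most time points share a scan date and groups differ in level. Pearson's r was 0.80 for Npr3 with Lep (Spearman's rho 0.74), 0.72 for Bmp3 with Npr3 (rho 0.68) and 0.70 for Bmp3 with Lep (rho 0.67). With each time point's mean taken off, these were 0.77, 0.73 and 0.76, and without week 6 they were 0.75, 0.78 and 0.77 over 32 arrays.

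Mest had r of 0.60 with Npr3 (rho 0.56), 0.52 with Bmp3 (rho 0.54) and 0.52 with Lep (rho 0.51), and 0.76, 0.70 and 0.66 within time points. Without week 6 its r with Lep was 0.30. Sfrp5 had r of 0.56 with Bmp3 (rho 0.52), 0.22 with Npr3 (rho 0.11), 0.33 with Lep (rho 0.25) and 0.13 with Mest (rho 0.14), so the genes whose promoters are printed above had the lowest r of all 6 pairs of members, though Sfrp5 and Npr3 had the lowest rho. Within time points Sfrp5 had r of 0.38 with Bmp3, 0.27 with Mest and 0.16 with Npr3, the lowest there. With the median of the adipocyte list, r was 0.44 for Mest, 0.21 for Sfrp5, 0.51 for Bmp3, 0.47 for Npr3 and 0.68 for Lep. Without week 6 these were 0.28, 0.34, 0.54, 0.36 and 0.61, in the same order. With the median of the skeletal muscle genes they were -0.54, 0.03, -0.26, -0.38 and -0.29. For the progenitor genes they were -0.26, -0.10, -0.33, -0.42 and -0.66. Between the lowest and the highest of the 37 arrays Mest spanned 5.54 log2 units, Sfrp5 5.69, Bmp3 5.07 and Npr3 4.79.

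**Figure D4:**
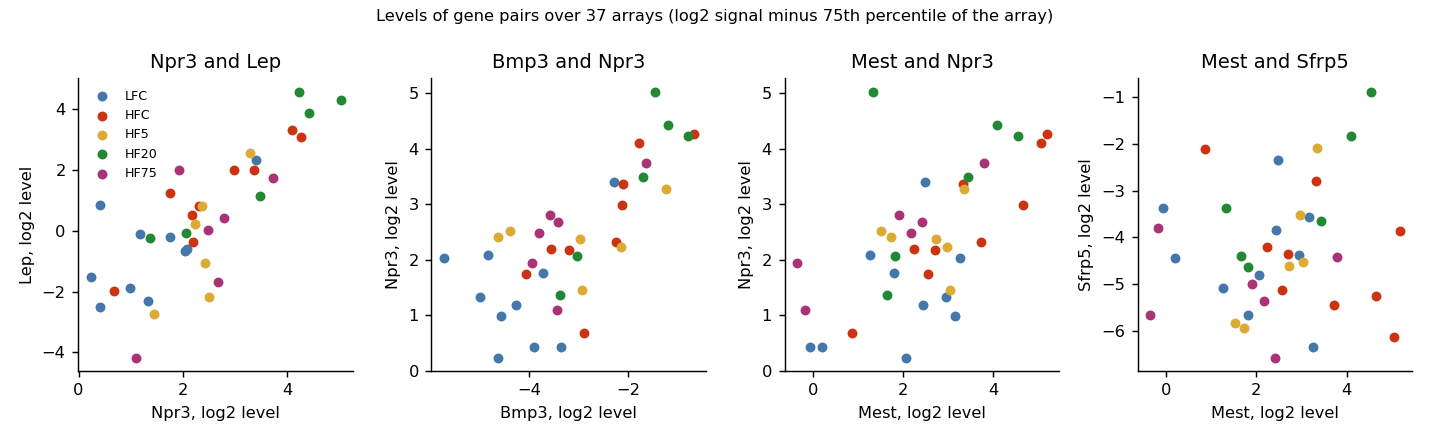
Log2 level of 1 gene against another over 37 arrays, 1 point per array coloured by group, for Npr3 with Lep, Bmp3 with Npr3, Mest with Npr3 and Mest with Sfrp5. The points rise together for Npr3 and Lep (r = 0.80) and scatter widely for Mest and Sfrp5 (r = 0.13).

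The genes most like each member were sought among 27487 candidates, whose median r to any member lay between -0.02 and 0.03. For Mest these were the non-coding RNA D430019H16Rik (r 0.76, and 0.72 for a second probe of that RNA), the potassium channel gene Kcnj14 (0.70), Trp53inp2, an autophagy gene (0.68), and Klf14, an imprinted transcription factor gene (0.68). Klf14 lies on chromosome 6 as Mest does, with 5 annotated entries between them, and its r to Mest was 0.87 within time points. For Sfrp5 they were Fgf13 (0.72), the actin-binding gene Synpo2 (0.70), the matrix gene Thbs2 (0.70, and 0.43 within time points), 1700113H08Rik (0.67) and the small heat shock gene Hspb7 (0.66). Bmp3 was most like the neurotrophin receptor gene Ntrk2 (0.81), the imprinted gene Nnat (0.81), the second probe of D430019H16Rik (0.80), the desmosome gene Pkp2 (0.78) and the sulfate transporter gene Slc26a2 (0.77). Npr3 was most like that same probe (0.83), Nnat (0.83), Fmr1, an RNA-binding protein gene (0.82), Trp53inp2 (0.80) and Gm5144 (0.80). Nnat, Trp53inp2 and 1 probe of D430019H16Rik were thus near the top for more than 1 member, and no such name was shared with Sfrp5.

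Imprinted genes of the network to which Mest belongs were higher on HFC in 12 of 15 cases (median 0.22). Nnat, which encodes a small membrane protein of fat and brain, differed by 2.48 (SE 0.60, higher at 8 of 9 times) and Peg3, a zinc finger gene, by 0.68 (SE 0.28, 8 of 10). The level of Nnat averaged -2.0 ± 1.79 on LFC (SD, n = 10), 0.71 ± 1.98 on HFC (SD, n = 10), -0.17 ± 1.38 on HF5 (SD, n = 6), 2.11 ± 2.0 on HF20 (SD, n = 6) and -0.40 ± 1.70 on HF75 (SD, n = 6). On LFC 14 of the 15 genes were lower late than early (median -1.04, against -0.09 for all probes), with 13 of 15 under quantile scaling and 15 of 15 under median scaling. On HFC 10 of 15 were lower late (median -0.53, against 0.02). Between HF75 and HF20, 9 of 15 were lower (median -0.22), and Nnat (-2.51) and Peg3 (-1.43) were lower at 6 of 6 weeks. No imprinted gene passed the test in any of these contrasts.

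Among the genes of Sfrp5's pathway, the other Wnt antagonists were higher on HFC in 2 of 7 cases (median -0.20), with Sfrp4 at 1.19 (SE 0.49) and Frzb, which also binds Wnt, at -0.75 (SE 0.56). Weeks 3 and 12 each held an array that stood apart. Sfrp4 was at -2.63 on LFC and 0.50 on HFC in week 3, and at -4.05 and 0.92 in week 12. Wnt ligands were higher in 4 of 9 (median -0.25, with 5 of 9 and 0.04 under quantile scaling), and Wnt10a, known to hold back adipocyte formation, differed by -1.72 (SE 0.58) and was lower on HFC at 9 of 10 times. Its week 3 levels were -1.73 on LFC, the array that stood apart, and -7.58 on HFC. The share of all probes lower at 9 of 10 times was not counted. Of 11 Wnt receptor genes 7 were higher (median 0.03, with 5 of 11 and -0.06 under quantile scaling, and 5 of 11 and -0.04 without week 6), with Fzd4 at 0.50 and Fzd5 at -0.44. In week 3 Fzd4 was at 0.39 on LFC and 3.63 on HFC. Of 9 Wnt target genes 2 were higher (median -0.09), with Axin2, a feedback inhibitor, at 0.69 (SE 0.65) and Wisp2 at -0.56 (SE 0.48). In week 3 Axin2 was at -5.44 on LFC and -0.74 on HFC. Over time, 7 of 7 Wnt antagonists were lower late on LFC (median -0.90) and 6 of 7 on HFC (median -0.67), the exception on HFC being Sfrp4 at 1.71 (SE 0.37). Sfrp5 itself, not counted in the list, was at 2.02 there. Between HF20 and HF5, 2 of 10 Wnt targets were higher (median -0.61).

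In the BMP pathway of Bmp3, ligand genes were higher on HFC in 4 of 10 cases (median -0.11), or in 6 of 10 under quantile (0.22) and median scaling (0.03), with Inhba, a subunit of activin, at -0.74 (SE 0.46) and Bmp5 at -0.54 (SE 0.30). Receptor genes were higher in 4 of 9 (median -0.09), or in 6 of 9 under quantile (0.10) and 5 of 9 under median scaling (0.05), with Bmpr1b at -0.86 and Bmpr1a at 0.64. In week 3, where the LFC array stood apart, Bmpr1b was at -1.64 on LFC and -7.87 on HFC. Bmpr1a was at -3.06 and 1.03 there. Of the secreted antagonists and modulators 6 of 10 were higher (median 0.08), with Bmper at 0.68. Of 9 Smad and target genes 2 were higher (median -0.13, with 5 of 9 and 0.01 under median scaling), with Smad4 at -0.30 and Smad6, an inhibitor, at -0.28. The widest Smad4 difference was on day 14, with -0.98 on HFC and 2.83 on LFC. Late on HFC, 9 of 10 ligands (median 0.59) and 9 of 9 Smad and target genes (median 0.83, with 7 of 9 under median scaling) were higher than early, while Bmp3 was at 0.12. The count of ligands was 8 of 10 under quantile and 7 of 10 under median scaling. Ligands were higher in 1 of 10 cases on HF20 against HF5 (median -0.64), and Bmp3 had the opposite sign there (1.13).

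Of the natriuretic peptide genes 3 of 10 were higher on HFC (median -0.11). Nppb, which encodes a peptide cleared by Npr3, differed by -0.70 (SE 0.47) and Prkg1, a kinase downstream of the receptors that signal, by -0.59 (SE 0.45). In week 3, where the LFC array stood apart, Nppb was at -1.91 on LFC and -5.78 on HFC. Late on HFC 8 of 10 were higher (median 0.73), and 1 of 10 was higher on HF20 than on HF5 (median -0.67), where Npr3 itself was at 1.06. Other genes that track fat pad growth were higher on HFC in 5 of 8 cases (median 0.29), with Cav2, a caveola gene, at 0.57 (SE 0.42). In week 3 Cav2 was at -0.34 on LFC and 4.20 on HFC. Among markers of other cells, 7 of 10 progenitor genes were higher on HFC (median 0.12, with 5 of 10 under median scaling), 3 of 6 visceral depot genes (median -0.01, with 0.06 under quantile scaling), 4 of 5 subcutaneous depot genes (median 0.16), 1 of 7 skeletal muscle genes (median -0.21) and 1 of 5 brown fat genes (median -0.13, with 3 of 5 under either scaling, and Cidea at -1.20, SE 0.57). Cidea was at 5.67 on LFC and -0.81 on HFC in week 12, where the HFC array stood apart.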

How the data were processed

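RNA of 39 single-colour arrays (11 LFC, 10 HFC, 6 each of HF5, HF20 and HF75) on 32 slides, scanned on 13 dates, was analysed. Groups and times were taken from the labels. Per the file headers, the deposited scanner files hold intensity values background-subtracted by Feature Extraction 10.5.1.1 (9.1 in the submitters' processing notes), with no normalisation between arrays. The week 9 files had passed through a spreadsheet: their intensities are rounded to 3 significant digits, and 5 spot names turned into dates were read from another file. The authors' deposited file of processed data holds log2 values relative to LFC at each time point, and was used as an alternative. Weeks 3 and 6 were each scanned on 2 dates (LFC of week 3 apart, and HF20 and HF75 of week 6).

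Processed intensity was log2 transformed, the array's 75th percentile subtracted, outlier spots set to missing and spots of a probe averaged. The number of arrays limits the precision. A probe entered a fit if it was well above background on 10 or more of 20 arrays (HFC against LFC), 6 of 30 (weeks 3 to 18), 5 of 11 (LFC), 5 of 10 (HFC) or 6 of 18 (KAL-1). Fits used limma 3.58.1 in R 4.3.3 with data.table (version 1.17.8), two-sided, with Benjamini-Hochberg adjustment over all probes tested at 0.05. The diet fits had time point as a block, and the KAL-1 time fit had dose as a term and time point as a random block. Intervals are at 95%. Nothing says that arrays came from separate animals, so p-values measure the spread between these arrays. The t-test of the methods compares replicates within a time point, and here a plain t-test on the paired differences stands in for it. The fits were tested on simulated data. Tables and figures used Python 3.11.15, numpy 2.4.6, pandas 2.3.3, scipy 1.17.1 and matplotlib 3.10.9.

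The 4 members and the 21 lists of other genes (210 genes, brightest probe each) were chosen with earlier results of these data known. Named genes were, per list, those past the threshold, else up to 2 with the largest HFC minus LFC difference, and Lep. A gene picked by this rule is not reported here. Sfrp4, Nnat, Wnt10a and the others keep that choice in later comparisons, and the week 6 markers were named after their values were seen. For each member the 5 names with the highest Pearson r over 37 arrays were named, among probes well above background on 19 or more of 39. Alternatives were normexp (offset 50), quantile and median scaling, other filters on dim probes, kept outlier spots, array weights, other blocks, and leaving out arrays or time points.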

Additional observations from a re-analysis of the deposited data

Results flagged for a closer look

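Of 56 groups of 4 to 10 values (levels of a member in a diet group, or its differences between a pair of groups), 3 held a value whose gap to the nearest other value was beyond Dixon's 95% limit, which chance reaches in about 1 of 20 groups. The Mest difference of HFC minus LFC in week 3 was 4.55, with the other 9 time points between -0.38 and 2.21, and the LFC array of that week is the one with 97.1% of spots well above background. The Sfrp5 difference of HF75 minus HF5 in week 18 was -2.92, with the other 5 weeks between -0.83 and 0.28, and the HF75 spot was not well above background. The Bmp3 level on HF75 in week 3 was -1.64, with the other 5 weeks between -3.95 and -3.43.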

How the results depend on the processing

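Of 229 recomputed counts of probes past the threshold 195 stayed within 1.5 times, 424 of 450 tested differences of the members kept their direction and their side of the threshold, and 389 of 392 differences without a test moved by less than the spread. Where values moved, the cause was not tested, other than that fewer arrays or probes were fitted. No paired analysis was possible because replicate numbers name no shared animal, and arrays were matched only by time point, as the fits and mean differences above do. With time point left out of the model 0 probes passed in the comparisons of diets and doses. Time points within a diet, their scan dates and the depot markers of week 6 cannot be told apart, and Sfrp5 lies near background on 7 arrays.

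For late minus early on LFC (149 probes passed), 0 passed with normexp, a linear trend over days or the earlier scan period, 67 with quantile scaling, 78 with median scaling, 82 with outlier spots kept, 40 when each probe had to be well above background on all arrays, 330 with array weights, and 46 to 210 with 1 time point left out. On HFC (0 passed), 41 passed with median scaling, 8035 with array weights, 1 within the earlier scan period, and 0 to 823 with 1 time point left out (823 without week 0). In the KAL-1 time contrast 1 passed with normexp, with that strict filter or with array weights, 6 without the random block, and 0 to 3 with a week left out (3 without week 12). HF75 minus HF5 gave 1 when LFC week 3 and HFC week 12 were left out and 2 with array weights, and HF75 minus HF20 gave 1 with array weights. Leaving out 1 week gave 0 to 1 for the mean dose against HFC (1 without week 3) and 0 to 2 for HF20 minus HF5 (2 without week 3). Without the arrays of weeks 3 and 6, HFC minus LFC, HF20 minus HFC and the mean dose minus HFC gave 1 each. That setting, the earlier scan period, scan date as the block and the slide as a random block were chosen after seeing the data.

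Mest in HF20 minus HF5 turned to -0.0080 without week 6 and to -0.19 without weeks 3 and 6. Npr3 in HF75 minus HF5 turned to -0.082 with scan date as the block, to -0.029 with the slide as a random block, to -0.56 with another probe, and ran from -0.18 to 0.19 with a week left out. Bmp3 there ran from -0.58 to 0.16. In LFC over time Npr3 turned to -0.087 with median scaling and -0.67 within the earlier scan period (-0.20 to 0.46 with 1 time point left out), and Sfrp5 to -0.12 with quantile scaling (-0.0077 to 0.73). In HFC over time Npr3 turned to 0.079 within the earlier scan period and to 0.62 and 0.11 with its other probes (-0.77 to 0.039), and Bmp3 to -0.21 with quantile scaling, -0.13 with median scaling, -0.21 with array weights, -0.28 with a linear trend and -0.19 within the earlier scan period (-0.38 to 0.38). Sfrp5 there passed with array weights (1.86, adjusted p 0.0220, limma). Without a test, HFC minus LFC from week 3 on moved to -0.64 for Sfrp5 and 0.17 for Bmp3 with normexp, HF75 minus HFC to -0.72 for Npr3 with another probe, and within time points r moved to 0.87 for Klf14 with Mest and 0.43 for Thbs2 with Sfrp5.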
